A study of Mus musculus with 9 samples.

Results

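The adipocyte and lipolysis genes described here are genes that fat cells use to store triglyceride, break it down and signal. They were chosen by gene symbol from a list of 10, and 9 of the 10 have a row among the 21124 genes of the deposited count tables: Pnpla2, Lipe, Plin1, Adipoq, Fabp4, Pparg, Cidec, Lpl and Dgat2. No row carries the symbol Cd36. A row with the placeholder symbol RGD1565355 is described in the tables as similar to the fatty acid translocase CD36. It is given beside the members and is not counted as one, and it was picked after its values were seen.

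Penile tissue of rats gave 9 RNA-seq libraries in 3 groups of 3, taken 4 weeks after surgery. Sham rats had the operation and no nerve injury. Injury rats had the major pelvic ganglia, which carry the autonomic nerves to the penis, clamped on both sides. Sacral NC rats had the same clamping and then a transplant of sacral neural crest cells, which the series title says were made from human pluripotent stem cells. Strain and age were not stated in the labels. No label says that each library came from its own animal, so p-values measure the spread between these libraries. The organism label names mouse, but the titles name rats and all 21124 identifiers are rat Ensembl identifiers, so the data were read as rat. The tissue label names penile tissue, while other labels give the source as a cell line and the cell type as pluripotent stem cells, and the libraries were treated as tissue.

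Fat cells hold triglyceride in droplets coated by perilipin. Noradrenaline starts the breakdown, as do natriuretic peptides in human fat. Adipose triglyceride lipase (Pnpla2) then removes the first fatty acid and hormone-sensitive lipase (Lipe) the next, and monoglyceride lipase finishes the job. Sympathetic nerves drive this breakdown in fat. Several of the genes are not particular to fat cells: Fabp4 and CD36 are also abundant in capillary endothelium and in macrophages, Lpl in macrophages, and Pnpla2 and Lipe are active in many tissues.

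The nerve injury went with lower levels of both lipases. Pnpla2 and Lipe were 1.70-fold lower in the Injury group than in Sham, and in the Sacral NC group they stood near the Sham level. Adipoq, Plin1 and Cidec, the members most restricted to fat cells, had mean levels more than 2-fold higher in Injury than in Sham, but the difference rested largely on 1 library and did not pass the test. Of the 9 members, only the 2 lipases were called in Injury against Sham.

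All 9 members passed the filter on low counts, so each comparison covers all of them. In Injury against Sham 2 of 9 were called, both lower, where 4.43% of the 15509 tested genes were called and 1.34% called lower. For 4 of 9 members the Injury and Sham libraries were fully separate, against 35.3% of all genes, and the members' median log2 difference was -0.03 against -0.04 over all genes. Against Injury, 2 of 9 were called in Sacral NC, both higher, where 6.96% of genes were called and 3.26% called higher. There the libraries were fully separate for 5 of 9 members, against 26.4% of all genes, and the median was 0.33 against 0.03. Without Sham 2 or without Sham 3, 0 members were called in Injury against Sham, and 69 and 21 of all genes, down from 687. Without Sham 1, Injury 2 or Injury 3 it was 1 member, and 263, 166 and 113 genes. For Sacral NC against Injury, 6 members were called without Sacral NC 2, where calls over all genes rose from 1080 to 3574. It was 1 member without Sham 3, Injury 2, Sacral NC 1 or Sacral NC 3, and 495, 417, 285 and 476 genes. A share of members near that of all genes says nothing about the members.

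Pnpla2 encodes the lipase that starts triglyceride breakdown (ENSRNOG00000069673, chromosome 1, 196552723 to 196557805, plus strand; coordinates throughout are those in the deposited tables, which do not name the rat build). Its level, in TMM-scaled CPM (read counts over the library total after scaling, here called scaled counts), was 73.9, 73.3 and 65.4 in Sham 1 to 3, 45.9, 39.4 and 39.8 in Injury 1 to 3, and 78.3, 64.8 and 72.6 in Sacral NC 1 to 3. Every Injury library lay below every library of the other groups, and the Sham and Sacral NC libraries overlapped. Against Sham, Pnpla2 fell by 0.77 ± 0.10 (SE) on the log2 scale in Injury, with an edgeR adjusted p of 0.0105. Against Injury it rose by 0.79 ± 0.10 in Sacral NC, with an adjusted p of 0.00717. These comparisons share the Injury libraries, so they are not independent of each other.

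Lipe, hormone-sensitive lipase, acts on the diglyceride that Pnpla2 leaves (ENSRNOG00000020546, chromosome 1, 80965627 to 80984310, minus strand). A gene without an established name overlaps it on the opposite strand, and reads of the pair cannot be told apart where the counting ignored strand. Lipe stood at 55.2, 55.1 and 51.5 scaled counts in the Sham libraries, 35.8, 34.2 and 25.3 in Injury, and 49.3, 53.5 and 47.3 in Sacral NC. Here too all Injury libraries were the lowest, with no overlap. Lipe fell by 0.76 ± 0.13 on the log2 scale in Injury against Sham (edgeR adjusted p = 0.0195) and rose by 0.65 ± 0.13 in Sacral NC against Injury (adjusted p = 0.0249). Reads of Lipe per read of Pnpla2 ran from 0.747 to 0.787 in Sham, 0.636 to 0.870 in Injury and 0.630 to 0.826 in Sacral NC, so the pair kept overlapping ratios in all 3 groups.

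In Injury against Sham both calls depended on which libraries were in the fit. Without Sham 2, Sham 3 or Injury 3, Pnpla2 had adjusted p-values of 0.0547, 0.0519 and 0.0529 in edgeR. Calls over all genes fell from 687 to 69, 21 and 113 in these fits. The log2 change of Pnpla2 stayed between -0.84 and -0.72 whichever library was left out. Lipe lost its call in Injury against Sham without Sham 1, Sham 2, Sham 3 or Injury 2, with adjusted p-values of 0.062, 0.0799, 0.0838 and 0.055. In Sacral NC against Injury, Pnpla2 passed whichever of the 9 libraries was left out, and Lipe missed without Sham 3, Injury 2, Sacral NC 1 or Sacral NC 3, at 0.0525, 0.0548, 0.0751 and 0.0646.

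**Figure D1:**
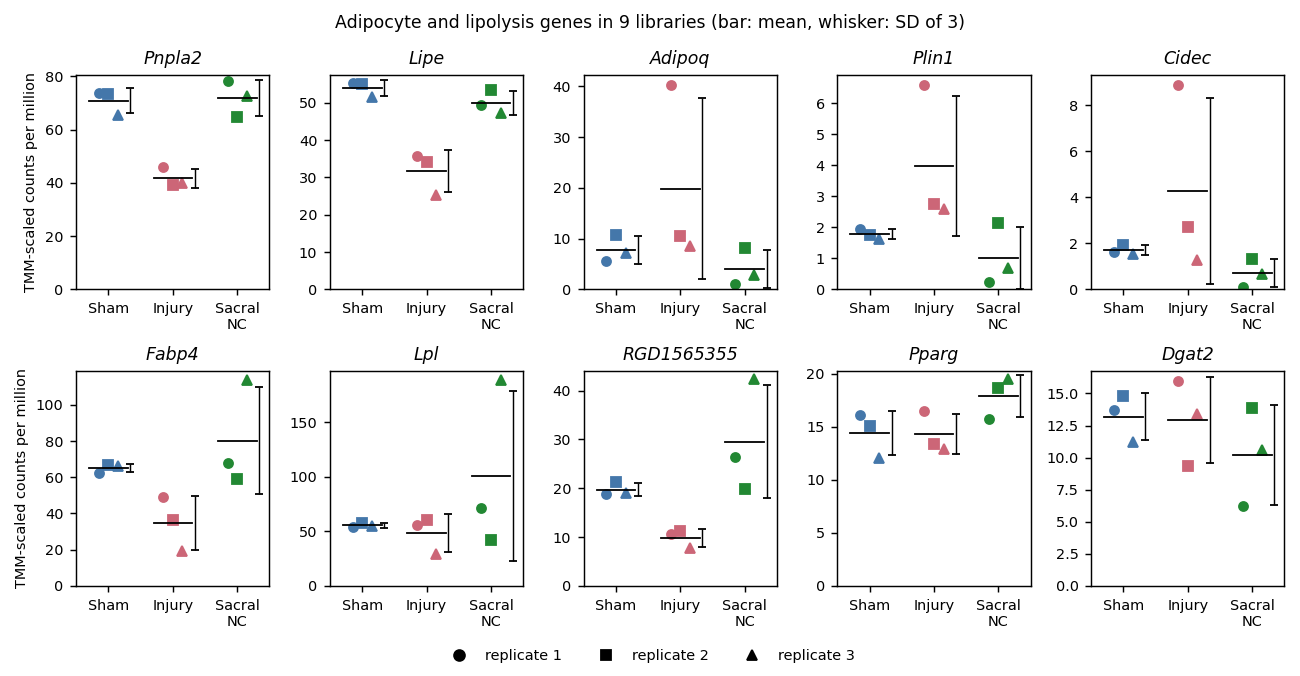
Level of each member and of RGD1565355 in TMM-scaled CPM (vertical axis, linear, from 0) in the Sham, Injury and Sacral NC libraries; symbols mark the replicate number, the bar is the group mean and the whisker the SD of 3 libraries. Pnpla2 and Lipe are lowest in all Injury libraries, while Adipoq, Plin1 and Cidec are highest in Injury 1 and lowest in Sacral NC 1.

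Adipoq encodes adiponectin, a hormone that fat cells secrete (ENSRNOG00000001821, chromosome 11, 77721912 to 77735564, minus strand). It had 5.57, 10.8 and 7.09 scaled counts in the Sham libraries, 40.3, 10.6 and 8.53 in Injury, and 1.02, 8.17 and 2.94 in Sacral NC. Injury 1 stood far above all other libraries and Sacral NC 1 far below, and the Injury and Sham libraries overlapped. The log2 difference was 1.34 ± 0.77 in Injury against Sham (edgeR adjusted p = 0.346) and -2.29 ± 0.81 in Sacral NC against Injury (adjusted p = 0.120). Without Injury 1 these were 0.29 and -1.24. Without Sacral NC 2 the second was -3.32 and passed (adjusted p = 0.0362).

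Plin1 encodes perilipin 1, the droplet coat protein that holds lipolysis in check until it is phosphorylated (ENSRNOG00000015086, chromosome 1, 133664892 to 133676828, minus strand). Its scaled counts were 1.95, 1.77 and 1.64 in Sham, 6.60, 2.77 and 2.58 in Injury, and 0.241, 2.13 and 0.687 in Sacral NC, from 4 to 101 reads a library. All Injury libraries lay above all others, with Injury 1 highest. The log2 difference of 1.15 ± 0.64 against Sham did not pass (edgeR adjusted p = 0.331), nor did that of -1.96 ± 0.67 in Sacral NC against Injury (adjusted p = 0.114). Without Injury 1 they were 0.58 and -1.38, and without Sacral NC 2 the second was -3.09 and passed (adjusted p = 0.0116).

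Cidec encodes a protein that fuses droplets into the large single droplet of a white fat cell (ENSRNOG00000009153, chromosome 4, 146569289 to 146582173, minus strand). It stood at 1.62, 1.94 and 1.53 scaled counts in the Sham libraries, 8.89, 2.70 and 1.29 in Injury, and 0.120, 1.34 and 0.687 in Sacral NC, where Sacral NC 1 had 2 reads. The Injury libraries overlapped both other groups, and Cidec differed 73.9-fold between its highest and lowest library. Its log2 difference was 1.33 ± 0.78 in Injury against Sham (edgeR adjusted p = 0.349) and -2.57 ± 0.84 in Sacral NC against Injury (adjusted p = 0.101). Without Injury 1 the values were 0.23 and -1.47, and without Sacral NC 2 the second was -3.40 and passed (adjusted p = 0.0459).

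These 3 genes followed each other over the libraries. Over 9 libraries, Pearson's r of log2 CPM was 0.97 for Adipoq with Plin1, 0.98 for Adipoq with Cidec and 0.96 for Plin1 with Cidec. The values of these genes share the group differences and, within each library, the sample. Reads of Plin1 per read of Adipoq lay between 0.163 and 0.350 in all 9 libraries, although Adipoq itself differed 39.4-fold. Adipoq with Pnpla2 gave r = -0.61, and Pnpla2 with Lipe gave 0.91. The whole adipocyte marker list of 7 genes, which holds these 3, summed to 71.2 to 94.3 scaled counts in the Sham libraries, 74.9 to 147 in Injury and 63.3 to 140.0 in Sacral NC, and edgeR called 0 of its 6 tested genes in any comparison; 0, 3 and 0 of them had an unadjusted p under 0.05 in Injury against Sham, Sacral NC against Injury and Sacral NC against Sham. By DESeq2 0, 3 and 0 were called. Most of that sum came from Plin4 and Cfd, which other cells also express. Retn, resistin, had 17, 21 and 15 reads in the Sham libraries, 73, 18 and 7 in Injury, and 0, 23 and 9 in Sacral NC, so the groups overlapped.

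Reads of Pnpla2 per read of Adipoq were 13.3, 6.76 and 9.23 in Sham, 1.14, 3.71 and 4.67 in Injury, and 76.6, 7.93 and 24.7 in Sacral NC. All Injury ratios were the lowest, and Sham and Sacral NC overlapped. Lipe per read of Adipoq gave 5.08 to 9.90 in Sham, 0.888 to 3.23 in Injury and 6.55 to 48.2 in Sacral NC. With the mean log2 level of Adipoq, Plin1 and Cidec as a covariate, both lipases still passed in Injury against Sham. In Sacral NC against Injury their log2 differences of 0.75 for Pnpla2 and 0.88 for Lipe had edgeR adjusted p-values of 0.184 and 0.168. That fit called 0 of all genes in Sacral NC against Injury, down from 1080 without the covariate, so the lost calls were not particular to the lipases. The ratios were chosen after the values were seen and carry no test, and in bulk tissue fewer cells of a type and less RNA per cell cannot be told apart.

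Markers of blood vessel cells moved with the lipases. The summed macrophage markers, given below, were also lower in every Injury library than in every Sham library. The 17 endothelial markers with a row, all detected in every library, summed to 2160.0 to 2300.0 scaled counts in the Sham libraries, 1260.0 to 1450.0 in Injury and 1970.0 to 2760.0 in Sacral NC, and 10 of the 17 were called lower in Injury than in Sham and 10 called higher in Sacral NC than in Injury. Per 100 reads of that list, Pnpla2 had 3.02 to 3.23 reads in Sham, 2.72 to 3.44 in Injury and 2.83 to 3.29 in Sacral NC. Lipe had 2.38 to 2.41, 2.01 to 2.69 and 1.78 to 2.71. On this scale the groups overlapped for both lipases. Adipoq per 100 endothelial reads did not overlap between Sham, at 0.243 to 0.472, and Injury, at 0.675 to 3.02. Plin1, Cidec, Pparg and Dgat2 did not overlap either, while Fabp4 and Lpl did. Pparg ran from 0.561 to 0.704 in Sham and 0.930 to 1.23 in Injury, though its scaled counts overlapped. The endothelial sum was lower in every Injury library, so a gene with unchanged scaled counts can separate on this scale. For the same reason a gene that fell by a like factor can overlap, whichever cells express it. These ratios too were chosen after the values were seen and carry no test. The part of vessel content in the lipase results was not tested.

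**Figure D2:**
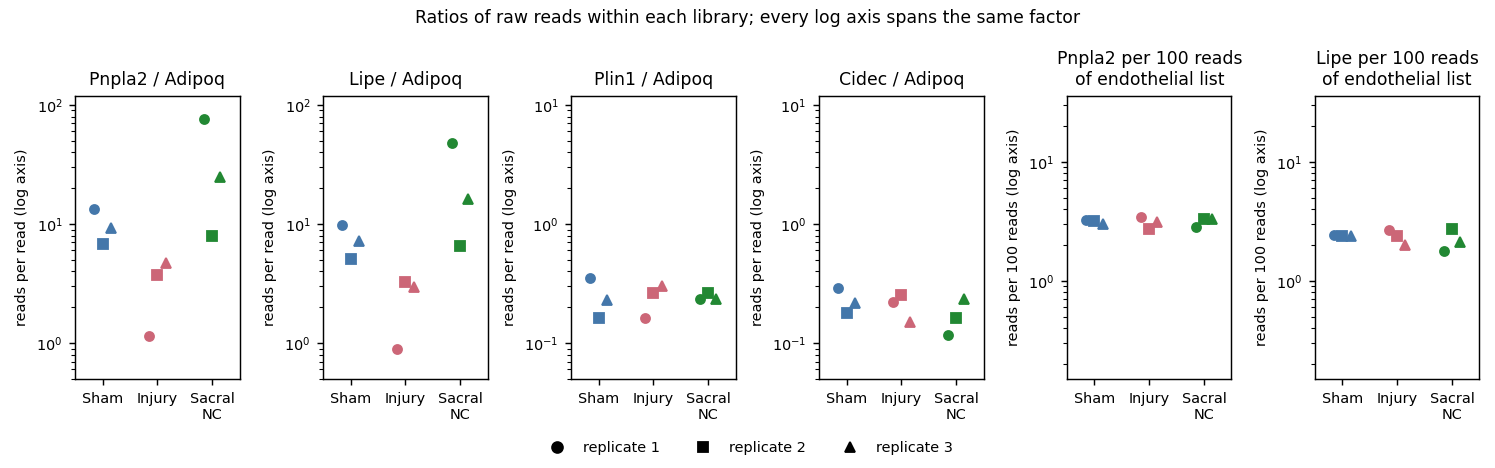
Ratios of raw reads within each library (log axes that span the same factor) for Pnpla2, Lipe, Plin1 and Cidec per read of Adipoq, and for Pnpla2 and Lipe per 100 reads of the endothelial marker list; symbols mark the replicate number. The lipases per Adipoq read are lowest in all Injury libraries, while Plin1 per Adipoq read and both lipases per endothelial read overlap between the groups.

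Fabp4, the fatty acid carrier of the cytoplasm (ENSRNOG00000010805, chromosome 2, 91580885 to 91585578, plus strand), had 62.6, 66.6 and 66.4 scaled counts in the Sham libraries, 49.1, 36.4 and 19.3 in Injury, and 67.8, 59.1 and 114 in Sacral NC. Every Injury library was below every other library, and Sacral NC 3 was the highest. The log2 difference was -0.90 ± 0.34 in Injury against Sham and 1.20 ± 0.34 in Sacral NC against Injury, with edgeR adjusted p-values of 0.171 and 0.0732, so neither passed. The second passed without Sacral NC 2, at 1.38 (adjusted p = 0.0364).

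RGD1565355, the row described as CD36-like (ENSRNOG00000005906, chromosome 4, 17354466 to 17513903, plus strand), stood at 18.8, 21.2 and 19.0 scaled counts in the Sham libraries, 10.6, 11.2 and 7.67 in Injury, and 26.4, 19.8 and 42.3 in Sacral NC. The Injury libraries were the lowest without overlap. It was called higher in Sacral NC than in Injury, by 1.59 ± 0.27 on the log2 scale (edgeR adjusted p = 0.0154). Among fits with 1 library left out, the call was lost without Injury 3 (adjusted p = 0.0637). It was also lost with only the 2 groups compared (0.0691) and with the adipocyte score (0.289), among other alternatives. In Injury it stood at 0.499-fold the Sham level (SE 0.27 on the log2 scale), with an edgeR adjusted p of 0.0754. That difference passed in DESeq2 (adjusted p = 0.0163). In edgeR it passed with only the 2 groups compared (0.0196) and without Sacral NC 2 or Sacral NC 3 (0.0285 and 0.0276). It missed in all other alternatives.

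Lpl encodes the lipase that frees fatty acids from circulating lipoproteins at the vessel wall (ENSRNOG00000012181, chromosome 16, 20829465 to 20855249, minus strand). Its scaled counts were 53.6, 57.7 and 55.3 in Sham, 56.3, 60.6 and 29.0 in Injury, and 71.9, 42.1 and 189 in Sacral NC. The groups overlapped, and Sacral NC 3 was far above the rest. Lpl was not called in either comparison with Injury, where the edgeR log2 differences were -0.19 ± 0.50 for Injury against Sham and 1.06 ± 0.50 for Sacral NC against Injury, with adjusted p-values of 0.855 and 0.219; the latter was 0.20 without Sacral NC 3 and 1.43 without Sacral NC 2.

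Macrophage markers stood apart in the same library. The 11 macrophage markers with a row summed to 846 to 1330.0 scaled counts in the Sham libraries, 427 to 619 in Injury and 448, 1710.0 and 3260.0 in Sacral NC from the lowest to the highest library, with Sacral NC 3 the highest and Sacral NC 2 the lowest. Lyz2, the lysozyme of macrophages, was at 653, 162 and 1530.0 in Sacral NC 1 to 3. In edgeR 0 of the 11 were called in any comparison, and 2, 8 and 0 had an unadjusted p under 0.05 in Injury against Sham, Sacral NC against Injury and Sacral NC against Sham. DESeq2 called 1 lower, 7 higher and 0. Lpl per 100 reads of the macrophage list was 4.16 to 6.33 in Sham, 4.68 to 13.2 in Injury and 4.20 to 9.39 in Sacral NC. The part of macrophage content in the levels of Lpl, Fabp4 and RGD1565355 was not tested.

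Pparg, the nuclear receptor that drives fat cell formation (ENSRNOG00000008839, chromosome 4, 148423194 to 148548468, plus strand), was at 16.1, 15.1 and 12.1 scaled counts in the Sham libraries, 16.5, 13.4 and 12.9 in Injury, and 15.7, 18.7 and 19.5 in Sacral NC. The groups overlapped, and the highest library was 1.61-fold above the lowest, the smallest spread of the 9 members. Its log2 difference in Injury against Sham was -0.02 ± 0.16 (edgeR adjusted p = 0.964), a sign that flips to 0.02 with RLE scaling, with collagen genes left out of the scaling, without a filter, in DESeq2 and with only the 2 groups fitted. In Sacral NC against Injury it was 0.33 ± 0.16 (adjusted p = 0.215).

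Dgat2, the enzyme that makes triglyceride in its last step (ENSRNOG00000016573, chromosome 1, 153454080 to 153484428, minus strand), was at 13.7, 14.8 and 11.2 scaled counts in the Sham libraries, 16.0, 9.36 and 13.4 in Injury, and 6.19, 13.9 and 10.6 in Sacral NC. The groups overlapped, with Sacral NC 1 the lowest library. The log2 difference was -0.03 ± 0.30 in Injury against Sham and -0.34 ± 0.30 in Sacral NC against Injury, with edgeR adjusted p-values of 0.958 and 0.502. The first changes sign with collagen genes left out of the scaling and without a filter, to 0.002 and 0.0023.

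**Figure D3:**
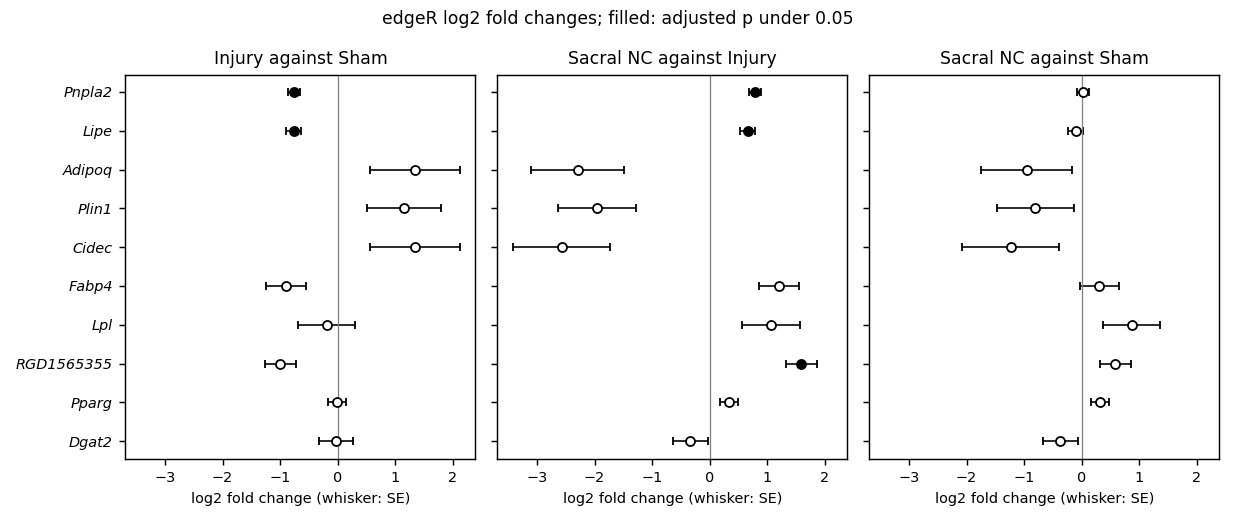
Log2 fold change from edgeR (horizontal axis, with SE as whisker) of each member and of RGD1565355 in Injury against Sham, Sacral NC against Injury and Sacral NC against Sham; filled points have an adjusted p under 0.05. Pnpla2 and Lipe are filled in both comparisons with Injury, in opposite directions, and no point is filled in Sacral NC against Sham.

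Between Sacral NC and Sham, edgeR called 0 of the 9 members and 0 of the 15509 genes (0.0%), and 0 members had an unadjusted p under 0.05, against 7.94% of all genes. DESeq2 called 62 genes and 0 members. Group means were 70.9 ± 4.72 (SD, n = 3) in Sham and 71.9 ± 6.77 in Sacral NC for Pnpla2, a log2 difference of 0.02 ± 0.10 (SE). For Lipe the log2 difference was -0.11 ± 0.13. The widest differences were -1.24 ± 0.84 for Cidec, whose libraries did not overlap, -0.95 ± 0.79 for Adipoq and 0.86 ± 0.50 for Lpl. Without Sacral NC 2 those of Cidec and Adipoq were -2.06 and -1.98, and without Sacral NC 3 that of Lpl was 0.04. A p that misses the threshold does not show that these groups were alike, and for these 3 genes the SE is large. The libraries were fully separate for 1 of 9 members, against 13.3% of all genes.

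The authors' deposited table, made with their own test, gave both lipases an adjusted p under 0.05 in both comparisons with Injury. It rests on the same libraries and is not independent support. For Sacral NC over Injury its log2 fold changes of Pnpla2, Lipe, Plin1, Adipoq and Fabp4 equalled those of the DESeq2 alternative here. In the authors' deposited table Pnpla2 had a log2 fold change of 0.73 for Sham over Injury (adjusted p = 2.99e-07) and 0.76 for Sacral NC over Injury (adjusted p = 4.69e-08). For Sacral NC over Injury the authors' deposited table also had Fabp4 at 1.18 (adjusted p = 0.00890), Adipoq at -2.30 (0.0150), Cidec at -2.60 (0.0148) and Plin1 at -1.98 (0.0300), which edgeR did not call here.

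Other genes of lipid handling were followed in 5 lists, whose counts stand beside 4.43% of all genes called in Injury against Sham and 6.96% in Sacral NC against Injury. Of 13 tested genes of fat cell identity, 1 was called lower in Injury against Sham, and 1 was called in each direction in Sacral NC against Injury. Sncg, gamma-synuclein, which both fat cells and peripheral neurons express, had 123, 105 and 92.3 scaled counts in the Sham libraries, 61.7, 52.5 and 43.1 in Injury, and 110.0, 87.0 and 127 in Sacral NC. The Injury libraries were lowest, without overlap. Sncg fell by 1.03 ± 0.18 on the log2 scale in Injury (edgeR adjusted p = 0.0221) and rose by 1.04 ± 0.18 in Sacral NC against Injury (adjusted p = 0.0168). In Sacral NC against Injury Thrsp, a nuclear protein of lipogenic cells, fell by 2.55 ± 0.63 (adjusted p = 0.0484), at 0.301 to 0.625 scaled counts in Sacral NC and 1.10 to 5.62 in Injury. Its low level makes that fold uncertain, and the call of Thrsp was lost without any one library other than Injury 3 (edgeR adjusted p up to 0.158), at -1.54 without Injury 1. The call of Sncg against Sham was lost without any 1 of the 3 Sham libraries, Injury 2 or Injury 3 (adjusted p up to 0.0818), and that against Injury without Injury 2, Injury 3, Sacral NC 1 or Sacral NC 3 (up to 0.064). The list's median log2 difference was 0.10 in Injury against Sham and 0.23 in Sacral NC against Injury, beside -0.04 and 0.03 over all genes.

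Of 11 tested genes of the lipolysis machinery, 1 was called lower in Injury, and 1 was called in each direction in Sacral NC against Injury. From this list DESeq2 called 1 higher and 1 lower in Injury against Sham. It called 2 higher and 1 lower in Sacral NC against Injury. Npr1, the natriuretic peptide receptor that drives lipolysis through cyclic GMP in human fat and relaxes vessels, was at 43.1, 55.8 and 52.4 scaled counts in the Sham libraries, 25.0, 25.1 and 25.6 in Injury, and 52.9, 37.7 and 52.2 in Sacral NC. The 3 Injury libraries lay close together below all others. Npr1 fell by 1.00 ± 0.15 on the log2 scale in Injury (edgeR adjusted p = 0.0139) and rose by 0.91 ± 0.15 in Sacral NC against Injury (adjusted p = 0.0128). Mgll, the monoglyceride lipase that completes lipolysis, went the other way: it stood at 114, 138 and 109 in Injury against 60.7, 83.2 and 75.8 in Sacral NC, and fell by 0.72 ± 0.16 in that comparison (adjusted p = 0.0358). The call of Npr1 against Sham was lost without Sham 2, Sham 3, Injury 2 or Injury 3 (adjusted p up to 0.0743), and that against Injury without Injury 3 or Sacral NC 1 (up to 0.0513). The call of Mgll was lost without any one library other than Sham 1 or Sacral NC 2 (up to 0.111). Mgll in Injury against Sham gave 0.40 ± 0.16, with an adjusted p of 0.185. The list's median was 0.08 in Injury against Sham and 0.18 in Sacral NC against Injury.

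The cofactor and the inhibitor of Pnpla2, from the same list, were picked after their values were seen. Abhd5, the protein that activates the lipase, was measured at 49.4, 62.3 and 59.7 scaled counts in Sham against 49.5, 52.5 and 59.5 in Injury, with overlap and a log2 difference of -0.09 ± 0.12 (edgeR adjusted p = 0.721). G0s2, which inhibits the lipase, had 5.46, 4.59 and 3.29 in Sham, 20.8, 12.3 and 16.5 in Injury, and 3.79, 16.0 and 8.93 in Sacral NC. All Injury libraries were above all Sham libraries, and the Sacral NC libraries overlapped both. The difference of 1.89 ± 0.47 in Injury against Sham just missed the threshold (adjusted p = 0.0633).

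Of 17 tested genes of lipid synthesis and storage, edgeR called 0 in any comparison, with 1, 3 and 1 at an unadjusted p under 0.05 in Injury against Sham, Sacral NC against Injury and Sacral NC against Sham. DESeq2 called 0, 1 and 0. The genes with the smallest p were Bscl2, seipin, at 0.20 ± 0.08 in Injury against Sham (edgeR adjusted p = 0.196), Fasn, fatty acid synthase, at -0.51 ± 0.18 in Sacral NC against Injury (0.120) and Elovl6, a fatty acid elongase, at -0.71 ± 0.23 in Sacral NC against Sham (0.578). None passed. The list's medians in these 3 comparisons were 0.05, -0.14 and -0.13.

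Of 11 tested genes of fatty acid uptake and plasma lipolysis, edgeR called 0 in Injury against Sham and 0 in Sacral NC against Injury, with 1 and 2 at an unadjusted p under 0.05. DESeq2 called 0 and 2. Scarb1, the HDL receptor, had the smallest p in Injury against Sham, at -0.59 ± 0.20 on the log2 scale (edgeR adjusted p = 0.133). Angptl4, a secreted inhibitor of the lipase that Lpl encodes, had the smallest p in Sacral NC against Injury. It was at 19.5, 5.68 and 14.3 scaled counts in Injury against 52.3, 22.3 and 43.5 in Sacral NC, without overlap, and the difference of 1.58 ± 0.44 did not pass (adjusted p = 0.0674). The list's medians were -0.01 and 0.06.

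Of 16 tested genes of adipogenic transcription, 1 was called lower in Injury and 3 higher in Sacral NC against Injury. Nr1h3, the sterol receptor LXR alpha, which macrophages also express, was at 24.3, 27.9 and 26.2 scaled counts in the Sham libraries, 15.1, 13.5 and 18.4 in Injury, and 29.3, 24.8 and 30.2 in Sacral NC. The Injury libraries were lowest, without overlap. Nr1h3 fell by 0.74 ± 0.14 in Injury (edgeR adjusted p = 0.0253) and rose by 0.84 ± 0.14 in Sacral NC against Injury (adjusted p = 0.0131). Cebpd, an early factor of fat cell formation that inflammation also induces, rose in Sacral NC against Injury by 1.68 ± 0.35 (adjusted p = 0.0286), from 10.0, 16.8 and 12.6 to 50.9, 22.0 and 53.5. Klf15, a glucocorticoid-responsive factor, rose by 0.53 ± 0.13 (adjusted p = 0.0437), from 19.3, 14.3 and 18.8 to 26.4, 24.3 and 25.0. The call of Nr1h3 against Sham was lost without any one of the Sham libraries, Injury 1 or Injury 2 (adjusted p up to 0.103), and that against Injury without Sacral NC 1 (0.0516). The call of Cebpd was lost without Sham 3, any one Injury library, Sacral NC 1 or Sacral NC 3 (up to 0.0994), and that of Klf15 without any one library other than Sacral NC 2 (up to 0.134). The list's median was 0.03 in Injury against Sham and 0.25 in Sacral NC against Injury.

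In Sacral NC against Sham edgeR called 0 genes of any of the 5 lists, with 3, 2, 1, 1 and 4 at an unadjusted p under 0.05 in the order given, and DESeq2 called 0. The smallest p in each list belonged to Thrsp, at -2.26 ± 0.63 (edgeR adjusted p = 0.578), Hilpda, an inhibitor of Pnpla2, at 0.47 ± 0.18 (0.614), Elovl6, Angptl4 at 1.07 ± 0.43 (0.614) and Cebpb at 0.69 ± 0.22 (0.578). The lists share some genes, so their counts are not independent.

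**Figure D4:**
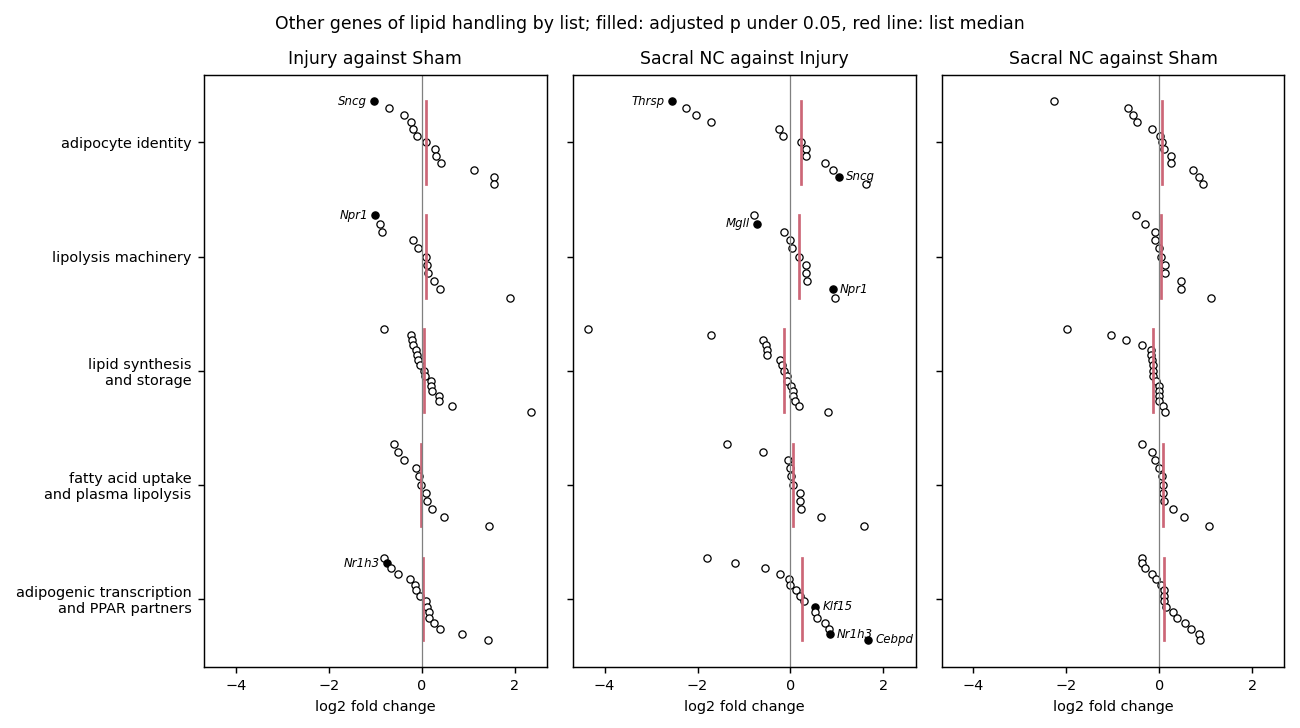
Log2 fold change from edgeR (horizontal axis) of the tested genes of 5 lists of lipid handling in 3 comparisons; each point is a gene, filled and named where the adjusted p is under 0.05, and the red line is the list's median. At most 3 genes of a list are filled in any comparison, and none in Sacral NC against Sham.

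Library composition varied in another way as well. The share of counts from 14 skeletal muscle markers was highest in Injury 2, at 2.89%, followed by Sham 1 at 0.995%, Sacral NC 2 at 0.263% and Injury 1 at 0.219%. It was 0.00441% to 0.0103% in the other 5 libraries. Without those 4 libraries the log2 changes of Pnpla2 were -0.76 (edgeR adjusted p = 0.135) in Injury against Sham and 0.87 (0.060) in Sacral NC against Injury. Those of Lipe were -1.03 (0.120) and 0.88 (0.0597). These fits hold 1 to 2 libraries a group, and the lone Injury library is assumed to vary like the others. With a muscle score as covariate both genes passed in both comparisons.

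The summed fibroblast marker level moved opposite to the lipases, but the single markers did not move as a block. The 8 markers, all detected in every library, took 3.01% to 3.46% of counts in Sham, 9.29% to 11.8% in Injury and 2.34% to 3.41% in Sacral NC, so the Injury libraries stood fully apart. Of the 8 genes, edgeR called only Col1a1 and Col3a1, which encode fibrillar collagens. They were called higher in Injury than in Sham and lower in Sacral NC than in Injury. The other 6 were not called. In Injury 2 of the 8 lay fully above Sham and 2 fully below, beside 35.3% of all genes fully separate. In Sacral NC 1 lay fully above Injury and 3 fully below, beside 26.4%. The list's median log2 difference was 0.10 in both comparisons. DESeq2 called 2 higher and 3 lower in Sacral NC against Injury, where it called 2268 genes. With collagen genes left out of the scaling both lipases passed in both comparisons, Pnpla2 at -0.73 and 0.76 and Lipe at -0.725 and 0.63 on the log2 scale. The part of fibroblast content in the lipase results was not tested. Smooth muscle markers overlapped between the groups, with sums of 3170.0 to 7430.0 scaled counts in Sham, 5250.0 to 6740.0 in Injury and 1830.0 to 9280.0 in Sacral NC.

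The genes whose level over the 9 libraries was most like that of Adipoq, among 12045 genes with a mean of at least 50 TMM-scaled counts a library (not CPM), were Scd (Pearson's r = 0.95), Ric8b (0.93), Pdia5 (0.93), Tmem131l (0.92) and Tarbp2 (0.92), as a description over libraries that share groups. Scd, the stearoyl-CoA desaturase, was at 10.9, 14.5 and 11.1 scaled counts in the Sham libraries, 30.4, 17.7 and 9.14 in Injury, and 1.50, 9.82 and 6.31 in Sacral NC. Like Adipoq it was highest in Injury 1 and lowest in Sacral NC 1. The genes most like Pnpla2 were Hid1 (0.98), Obp3 (0.98), Vdr (0.98), Ptk2b (0.98) and Cyp4b1 (0.98). The count of Obp3 is uncertain, since it overlaps a related gene on the same strand.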

How the data were processed

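RNA-seq counts of 9 rat libraries in 3 groups of 3 were used, with groups and replicate numbers from the sample titles. The authors deposited 3 tables, 1 for each pair of groups, with raw read counts per gene, per the file headers. Each table also holds the authors' group means of those counts (a signal value that was not used), and from their own test a p-value, its adjusted value, a statistic (a score) and a log2 fold change, per the file headers. Counts of a library that stands in more than 1 table differed in 0 values, and the tables were joined. The aligner HISAT2 2.0.5 and the mouse build GRCm38.p6 appear in the submitters' processing notes, and the build does not match the rat identifiers. No source used here names the counting program, whether it used strand, or the annotation. Totals ran from 15442190 to 18283418 counts a library, so the few reads of Plin1 and Cidec carry a large counting error.

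The test was the robust quasi-likelihood F-test of edgeR 4.0.16 (R 4.3.3) on TMM-scaled libraries, after its default low-count filter, which kept 15509 genes. The 3 group means were fitted to all 9 libraries together, which leaves 6 residual degrees of freedom. Genes were called at a Benjamini-Hochberg adjusted p under 0.05 over all genes kept. The fit was tested on simulated data. Levels are TMM-scaled CPM, and correlations used log2 CPM with a prior count of 2. The members, the lists and the tests were chosen with earlier results of these data known. Named were all members, the called genes of each of 5 lists (up to 4 a list and comparison) or, with none called, the gene with the smallest p, and the 5 genes most like Adipoq and Pnpla2. Named outside this rule were RGD1565355, Abhd5, G0s2, Plin4, Cfd, Retn and Lyz2, and the called fibroblast markers Col1a1 and Col3a1. Of the lists, 1 gene is not reported here. Alternatives were RLE scaling, TMM scaling without 41 collagen genes, no filter, a minimum of 10 counts in each library of 1 group, DESeq2 1.42.0 on unfiltered counts, the replicate number as a block, only the 2 groups compared, muscle or adipocyte scores as covariates, leaving out 4 libraries rich in muscle reads, and leaving out each library.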

Additional observations from a re-analysis of the deposited data

How the results depend on the processing

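Over 49 results for single genes, 19 alternatives gave 931 values, of which 779 kept direction and side of the threshold, 106 lost the call, 16 gained one and 30 changed sign. The causes were not tested. With all libraries 687 genes were called in Injury against Sham, 1080 in Sacral NC against Injury and 0 in Sacral NC against Sham. DESeq2 called 1584, 2268 and 62. With only the 2 groups compared, 1456 and 239 were called in the comparisons with Injury; without the 4 libraries rich in muscle reads, 1 and 59; with the adipocyte score, 230 and 0; with the muscle score, 546 in Sacral NC against Injury. Of the 2 members called in Injury against Sham, 0 were called without the 4 libraries. In Sacral NC against Injury 6 members were called in DESeq2, 1 with only the 2 groups, 0 without the 4 libraries and 0 with the adipocyte score. Leaving out 1 library at a time gave 21 to 1329 genes and 0 to 2 members in Injury against Sham, 285 to 3574 genes and 1 to 6 members in Sacral NC against Injury, and 0 to 106 genes and 0 members in Sacral NC against Sham. The fewest in Injury against Sham came without Sham 3. Without Sacral NC 2 came the highest counts in all 3 comparisons for genes, and the 6 members.

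The replicate number as a block left 267 genes called in Injury against Sham, 471 in Sacral NC against Injury and 2 members in each, and under it RGD1565355, Mgll, Cebpd, Klf15 and Thrsp missed the threshold in Sacral NC against Injury, and Nr1h3 in Injury against Sham. Same-numbered libraries did not deviate together throughout, with r from -0.55 to 0.62, so the numbers were not taken to pair the libraries.

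Sign changes concerned results that had not passed. In Injury against Sham, Adipoq was at -0.031 without the 4 libraries and -0.0633 with the adipocyte score, and Cidec at -0.386 and -0.245. Pparg was at 0.0188 with RLE scaling, 0.0207 with collagen genes left out of the scaling, 0.0213 without a filter, 0.0186 in DESeq2 and 0.0179 with only the 2 groups. Dgat2 was at 0.002 with collagen genes left out of the scaling, 0.0023 without a filter and 0.082 without the 4 libraries. With the adipocyte score, which is itself made of Adipoq, Plin1 and Cidec, Adipoq was at 0.14, Cidec at 0.10 and Dgat2 at 0.37 in Sacral NC against Injury, and Lipe at 0.0179, Adipoq at 0.0739 and Dgat2 at 0.0065 in Sacral NC against Sham. With 1 library left out, Pparg ran from -0.128 to 0.072, Lpl from -0.381 to 0.074 and Dgat2 from -0.216 to 0.152 in Injury against Sham, and Pnpla2 from -0.0425 to 0.0919 and Fabp4 from -0.0307 to 0.482 in Sacral NC against Sham.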
